A study of Mus musculus with 17 samples.

Results

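The 10 genes described here, Cdkn1a, Ccng1, Gdf15, Mdm2, Trp53inp1, Bax, Phlda3, Eda2r, Sesn2 and Zmat3, are targets of the transcription factor p53 or respond to cell stress. They were taken by their symbols from a table of 35285 genes, and all 10 were present in it. The list, which is headed by Cdkn1a and Gdf15, was chosen from these libraries with their values known, so the levels and fold changes of its genes describe the data and carry no evidence on the list as a whole. RNA was sequenced from the cochleae of 17 male C57BL/6J mice of wild-type genotype, aged 8 weeks, with 1 library for each mouse. The 3 control mice had saline injections and no noise. The 7 mice of the noise exposure (NE) group heard noise between 8 and 16 kHz for 2 h, at a level of 100 dB SPL, and an injection for this group is not given in the sources used here. The 7 mice of the brimonidine group heard the same noise and were given brimonidine, which activates α2-adrenergic receptors, as 3 doses of 1 mg/kg into the peritoneum, on the day before, the day of and the day after the noise. Cochleae were taken on day 2 after exposure. No library came from mice given brimonidine without noise, so the comparison of brimonidine with control combines the drug and the noise.

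p53, encoded by Trp53, is kept at a low level in unstressed cells because MDM2 marks it for degradation. DNA damage and other stresses stabilise it, and it then binds response elements near its target genes, which arrest the cell cycle, repair DNA, change metabolism or start apoptosis. Several of these genes also answer to other stress pathways. GDF15 and SESN2, for example, are induced through ATF4, the transcription factor of the integrated stress response. In the inner ear, p53 is known as a mediator of hair cell death after ototoxic drugs.

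The response element consists of a 10-base unit in 2 copies, and the canonical p53 consensus without a spacer was searched on both strands, which it matches equally because it is its own reverse complement up to its ambiguous letters. RefSeq promoter windows of GRCm38.p6, with 250 bases before and 50 bases after each start, were given for 8 of the 10 genes, with 2 windows each for Cdkn1a and Gdf15, and those of Trp53inp1 and Zmat3 were not analysed here. 1 of the windows of Cdkn1a and that of Ccng1 had a 20-base match with 1 mismatch, in a search that kept the conserved C and G of each unit intact. The other window of Cdkn1a, chr17:29093519-29093818, had at best a match with 7 mismatches and no exact single unit. In the same search, 22 of all 32851 windows (0.067%) had a match with at most 1 mismatch. The 250 bases before the start in these matching windows are shown because these members alone among the 8 had such a match, and the match is in capitals.
Cdkn1a, chr17:29090729-29090978, plus strand: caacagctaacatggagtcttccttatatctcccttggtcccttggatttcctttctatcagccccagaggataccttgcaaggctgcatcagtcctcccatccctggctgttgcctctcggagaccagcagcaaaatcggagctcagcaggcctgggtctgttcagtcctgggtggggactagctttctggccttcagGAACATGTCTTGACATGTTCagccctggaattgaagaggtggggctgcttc
Ccng1, chr11:40755287-40755536, minus strand: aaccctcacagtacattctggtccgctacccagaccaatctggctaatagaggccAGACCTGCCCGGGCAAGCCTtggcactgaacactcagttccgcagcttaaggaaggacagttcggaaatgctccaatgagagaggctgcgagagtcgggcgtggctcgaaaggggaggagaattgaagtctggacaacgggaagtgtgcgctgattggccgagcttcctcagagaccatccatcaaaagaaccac
The match of Cdkn1a lay at chr17:29090928-29090947, between 51 and 32 bases before the start of that window's transcript, and its first unit fitted the consensus at all 10 bases. The match of Ccng1 lay at chr11:40755462-40755481, between 195 and 176 bases before the start, and there the second unit did. An exact single unit was present in the same window of Cdkn1a, in those of Ccng1, Bax and Mdm2 and in 8.36% of all windows. The best match in the windows of Gdf15, Phlda3, Bax, Sesn2, Mdm2 and Eda2r had at least 5 mismatches. A match is a description of these letters, and elements outside the windows were not searched.

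The deposited values are FPKM, fragments of a gene scaled to the length of its exons and to the fragments of the whole library, so levels of different genes can be set side by side. Libraries held between 14457675 and 18288831 counted fragments. Of 12 lists of cell type markers, 8 had their highest summed level in control 2, and its 9 neutrophil markers summed to 9782 FPKM against at least 39638 in the other libraries. The 9 markers of cerebellar and central neurons summed to 210, 579 and 218 FPKM in control 1, control 2 and control 3, to between 5.17 and 16.6 in the NE group, and to between 5.35 and 8.91 in the brimonidine group except brimonidine 5, at 66.8. Of these 9 markers, Gabra6, Pcp2 and Neurod1 were at 0 in 3, 2 and 1 libraries. The labels call the cells interstitial cells of the cochlea, and the lists for hair cells, stria vascularis, Schwann cells, bone, neutrophils, erythroid cells and muscle each summed to at least 63.9 FPKM in every library. The hair cell sum was mostly Pvalb, which had between 52.3 and 257 FPKM over the libraries. No other marker of that list exceeded 6.21 FPKM, and Slc26a5, which encodes prestin, reached at most 0.858 FPKM. The sum of this list is therefore largely a level of 1 gene. In such mixed tissue, fewer cells of a type and less RNA per cell cannot be told apart.

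The 10 genes covered a wide range of levels. Trp53inp1, Cdkn1a, Ccng1 and Mdm2 lay between 17.6 and 62.6 FPKM in every library, Bax, Phlda3 and Sesn2 between 6.27 and 14.1, Zmat3 and Gdf15 between 0.571 and 5.34, and Eda2r between 0.0646 and 0.581. Eda2r did not reach the filter of 1 FPKM in at least 3 libraries, so 9 of the 10 genes were tested with limma on log2(FPKM + 1) over the whole table. Errors after ± are SDs over the 3 control, 7 NE or 7 brimonidine libraries. The plot of levels by group shows each library.

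**Figure D1:**
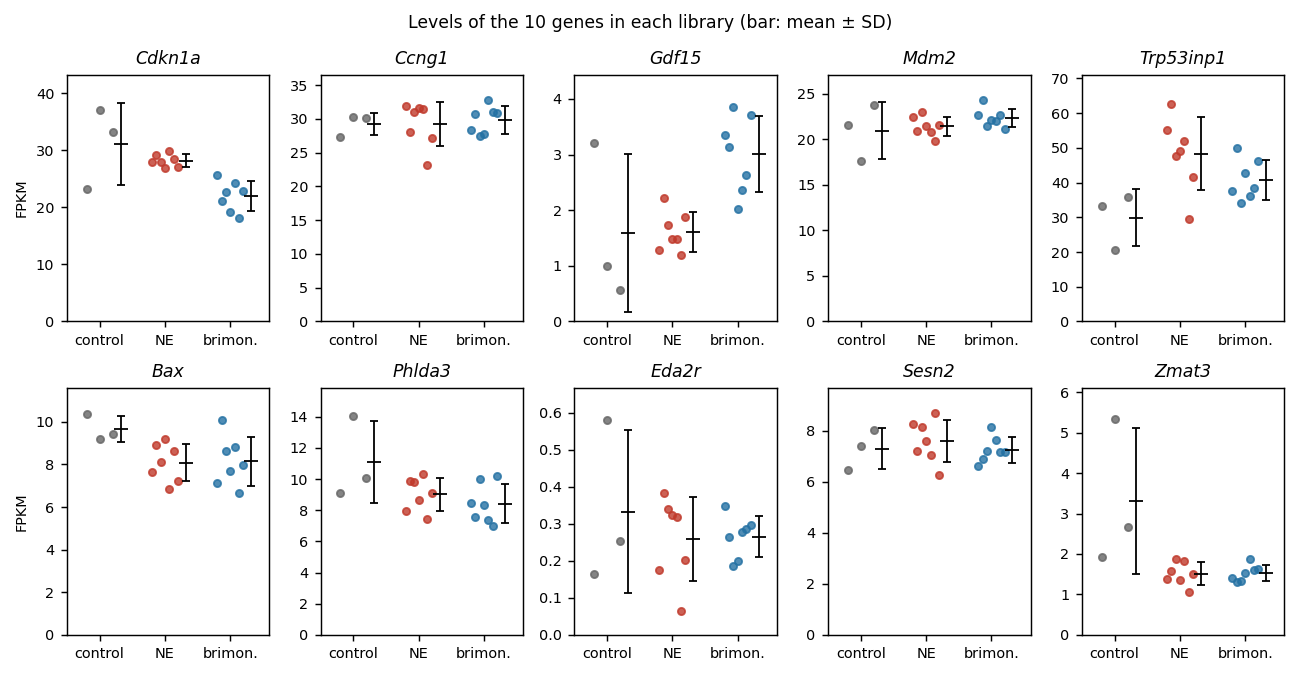
FPKM (vertical axis, from 0) of each of the 10 genes in the 3 control, 7 NE and 7 brimonidine libraries, with 1 point per library and the group mean ± SD to the right of the points. Cdkn1a in the 7 brimonidine libraries lies between 18.1 and 25.7 FPKM and below all 7 NE libraries, and Zmat3 in the 14 exposed libraries lies below the lowest control library, at 1.92.

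Between the brimonidine and NE groups, Cdkn1a averaged 22.0 FPKM after brimonidine and 28.2 after noise alone, Gdf15 averaged 3.01 and 1.61, and the other 7 genes tested differed by at most 0.22 on the log2 scale. The question was whether the drug was accompanied by other levels of these genes after the same noise. None of the 9 passed an adjusted p of 0.05 in limma, where 0.00637% of all 15707 genes did (1 gene), and none passed that and a 2-fold change, where 0% of all genes did. At an unadjusted p of 0.05, 2 of the 9 passed, Cdkn1a and Gdf15, beside 906 of all genes tested, and limma's voom on fragments recovered from the FPKM values also called 0 of the 9.

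Cdkn1a (ENSMUSG00000023067, chr17:29090979-29100722) encodes p21, an inhibitor of cyclin-dependent kinases that arrests the cell cycle. It had 23.2, 37.1 and 33.2 FPKM in the control libraries 1 to 3, and between 26.9 and 29.9 (median 27.9) in the 7 NE libraries. In the 7 brimonidine libraries it had between 18.1 and 25.7 (median 22.6). The brimonidine range lay below the NE range, which was the narrowest of the 3, with a CV of 3.84% against 12.2% in the brimonidine group and 23.0% in the control group. The NE mean was 28.2 ± 1.08 FPKM (SD, n = 7) and the brimonidine mean 22.0 ± 2.69 (SD, n = 7), a difference of -22.0%. The log2 fold change was -0.35 (95% confidence interval -0.49 to -0.21, adjusted p = 0.172 in limma). Groups that do not overlap were seen for 0.14% of all genes tested in this comparison, 22 genes. The gap was small, from 25.7 in brimonidine 1 to 26.9 in NE 4, and after rescaling to equal totals the ranges overlapped, with 27.9 as the highest brimonidine and 26.5 as the lowest NE value. After rescaling by the median ratio or by quantiles they did not overlap.

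Gdf15 (ENSMUSG00000038508, chr8:70629393-70632456, minus strand) encodes a secreted factor of the TGF-β superfamily that rises with mitochondrial and other stress and lowers food intake. It had 3.21, 0.996 and 0.571 FPKM in the control libraries, between 1.20 and 2.23 (median 1.48) in the NE group and between 2.02 and 3.85 (median 3.13) in the brimonidine group. All brimonidine libraries but brimonidine 4, at 2.02, lay above the highest NE library, NE 2 at 2.23. The NE mean was 1.61 ± 0.36 FPKM (SD, n = 7) and the brimonidine mean 3.01 ± 0.69 (SD, n = 7), 1.87 times as high. The log2 fold change was 0.61 (95% confidence interval 0.37 to 0.86, adjusted p = 0.172 in limma). These levels rest on few fragments, between 35 and 73 in the NE libraries and between 67 and 130 in the brimonidine libraries. For NE 2 the exact 95% Poisson interval, which covers counting error only, ran from 1.74 to 2.80 FPKM and for brimonidine 4 from 1.57 to 2.57. With equal totals the ranges of Gdf15 no longer overlapped. On the fragments, without the added 1 FPKM that compresses low values, the log2 fold change was 0.89.

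**Figure D2:**
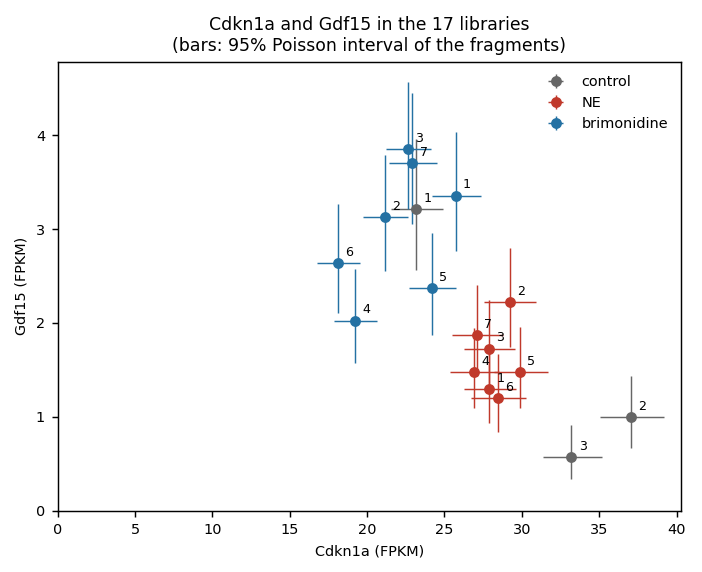
FPKM of Cdkn1a (horizontal axis) and Gdf15 (vertical axis) in each library, numbered by replicate, with exact 95% Poisson intervals of the fragments as bars. The NE libraries lie to the lower right, the brimonidine libraries to the upper left, and control 1, at 23.2 and 3.21 FPKM, among the brimonidine libraries.

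Across all 17 libraries, Cdkn1a and Gdf15 ran in opposite directions, and within the exposed groups they did not. The Pearson r of log2(FPKM + 1) was -0.72 over 17 libraries with the group means kept and 0.38 over the 14 exposed libraries after the group means were subtracted. Libraries share depth and tissue make-up, so both values are descriptions. Control 1 stood with the brimonidine libraries in both genes, and control 2 and control 3 stood beyond the NE libraries, with more Cdkn1a and less Gdf15. In both genes, control values lay on either side of the NE range.

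None of the remaining members passed between brimonidine and NE. Trp53inp1 (chr4:11156431-11174379), whose product is a stress-induced regulator of p53 activity and autophagy, averaged 48.3 ± 10.5 FPKM after NE and 40.8 ± 5.82 after brimonidine, with overlapping ranges of 29.5 to 62.6 and 34.1 to 50.1. Its log2 fold change was -0.22 (95% confidence interval -0.51 to 0.07), and without NE 6, its lowest NE library, it was -0.33 (-0.54 to -0.11, adjusted p = 0.501). Mdm2 (chr10:117688875-117710758), which encodes the ubiquitin ligase that degrades p53, had 21.4 ± 1.04 and 22.3 ± 1.04 FPKM. Its interval, from -0.03 to 0.14, was the narrowest of the 9. Ccng1 (chr11:40748552-40755311), for cyclin G1, had 29.2 ± 3.27 and 29.8 ± 2.01 FPKM, and the apoptosis effector Bax (chr7:45461697-45466898) had 8.09 ± 0.89 and 8.14 ± 1.16. Phlda3 (chr1:135766119-135769136), which encodes an inhibitor of AKT signaling, had 9.02 ± 1.07 and 8.42 ± 1.26. Sesn2 (chr4:132492032-132510501), for sestrin 2, which restrains mTORC1, had 7.60 ± 0.83 and 7.26 ± 0.51. Zmat3 (chr3:32334792-32366014), for an RNA-binding zinc finger protein, had 1.51 ± 0.29 and 1.52 ± 0.20. The adjusted p of these 7 genes was at least 0.897 in limma. Eda2r (chrX:97333840-97377216), a receptor of the TNF family for ectodysplasin A2, had 0.258 ± 0.114 and 0.266 ± 0.056 FPKM from 6 to 40 fragments a library, and it was not tested.

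**Figure D3:**
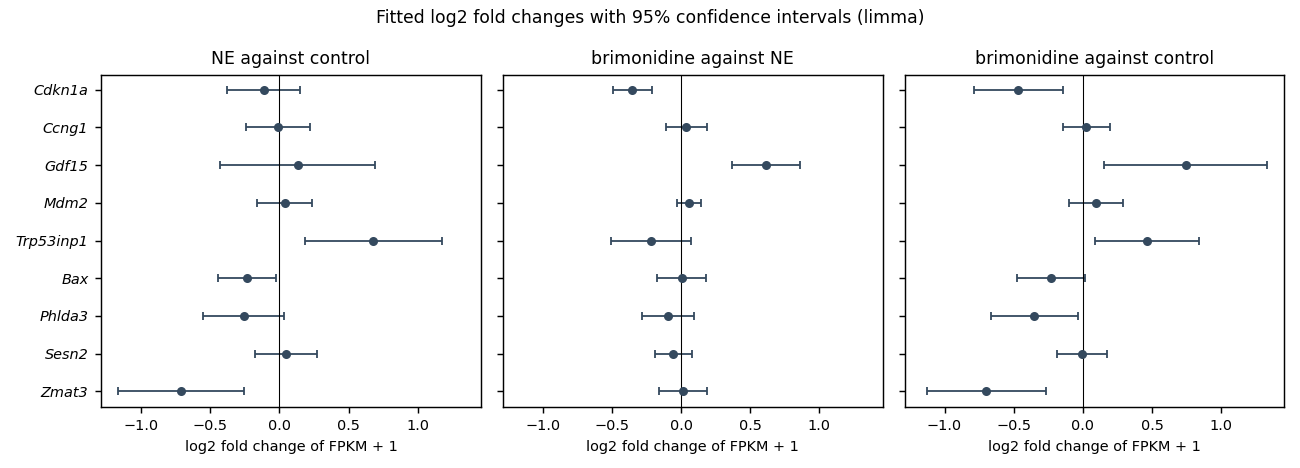
Log2 fold change of FPKM + 1 (horizontal axis) with its 95% confidence interval from limma for the 9 genes tested, in the 3 comparisons. Between brimonidine and NE the intervals of Cdkn1a (-0.49 to -0.21) and Gdf15 (0.37 to 0.86) lie clear of 0, and those of the other 7 genes cross it; the 2 comparisons with the 3 control libraries have wider intervals.

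Between the NE and control groups, Zmat3 was lower in the NE group and the other 8 genes did not pass. The comparison is labelled as one of noise, but every control library held at least 210 FPKM of the cerebellar and central neuron markers and no NE library more than 16.6, so noise and tissue make-up cannot be told apart in it, and whether the NE mice were injected like the controls is not given. Of the 9 tested, 1 passed an adjusted p of 0.05 in limma, beside 14.1% of all 15950 genes. In that fit none passed both this and a 2-fold change, as 5.76% of all genes did. At an unadjusted p of 0.05, 3 of the 9 and 32.9% of all genes passed. Without the added 1 FPKM, voom called 1 of the 9 and 14.4% of all genes. That member was Zmat3, at a log2 fold change of -1.03 (adjusted p = 0.0314 in voom). It was thus past 2-fold as well, as were 1248 of all genes with voom. The members' median log2 fold change was -0.01, and that of all genes tested was -0.04. The control mean of Cdkn1a was 31.2 ± 7.17 FPKM (SD, n = 3), with a log2 fold change of -0.11 (95% confidence interval -0.38 to 0.15, adjusted p = 0.525). That of Gdf15 was 1.59 ± 1.42 FPKM, with a log2 fold change of 0.13 (-0.43 to 0.69, adjusted p = 0.746).

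Both values moved when control 1 was left out. Without it, the log2 fold change of Cdkn1a was -0.31 (adjusted p = 0.0241) and that of Gdf15 0.55 (adjusted p = 0.0409), and with Zmat3 3 of the 9 passed, beside 24.3% of all genes. Their log2 fold changes were 0.02 and 0.01 when control 2 was left out, and -0.06 and -0.16 when control 3 was. Control 1 held 86 fragments of Gdf15, control 2 held 28 and control 3 held 17, and the exact 95% Poisson interval of control 1, from 2.57 to 3.97 FPKM, did not meet those of control 2 (0.662 to 1.44) or control 3 (0.333 to 0.914).

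Zmat3 had 1.92, 5.34 and 2.66 FPKM in the control libraries 1 to 3, and between 1.05 and 1.86 (median 1.49) in the NE group. All NE libraries lay below the lowest control library, and control 2 lay far above the other controls. The log2 fold change was -0.71 (95% confidence interval -1.16 to -0.26, adjusted p = 0.0434 in limma, between 0.0025 and 0.407 over the 20 alternatives). It was -0.39 without control 2 (adjusted p = 0.154), -0.95 without control 1 (0.0115) and -0.79 without control 3 (0.0648). Leaving out any 1 NE library raised its adjusted p above 0.05, so it did not pass, with a log2 fold change between -0.74 and -0.66. Zmat3 and Bax were the 2 members whose NE and control ranges did not overlap, as 18.3% of all genes tested did. With equal totals or quantile normalization none of the 10 was separate, and with the median ratio only Zmat3 was.

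Control 2, control 3 and control 1 held 5.34, 2.66 and 1.92 FPKM of Zmat3 beside summed levels of 579, 218 and 210 FPKM of the 9 cerebellar and central neuron markers. Brimonidine 5, the exposed library with the most of these markers, at 66.8 FPKM, held the highest Zmat3 of its group, at 1.88 FPKM. The same order of the controls held for the hair cell list (275, 121 and 113 FPKM) and for the supporting cell, strial, Schwann cell, macrophage and skeletal muscle lists. The hair cell sum was mostly Pvalb, at up to 257 FPKM, and Atp1b2, from 27.5 to 191 FPKM, varied most in the strial list. Whether these genes came from the same cells as the cerebellar and central neuron markers was not tested. It did not hold for the spiral ganglion neuron list (530, 172 and 195 FPKM) or for the neutrophil, B and plasma cell, erythroid and bone lists. Other exposed libraries did not follow the order of the cerebellar and central neuron markers. NE 1, with the most of these markers in its group (16.6 FPKM), held 1.38 FPKM of Zmat3, and NE 3, at 7.30 FPKM of the markers, held 1.86. The part of any of these lists in the difference was not tested.

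**Figure D4:**
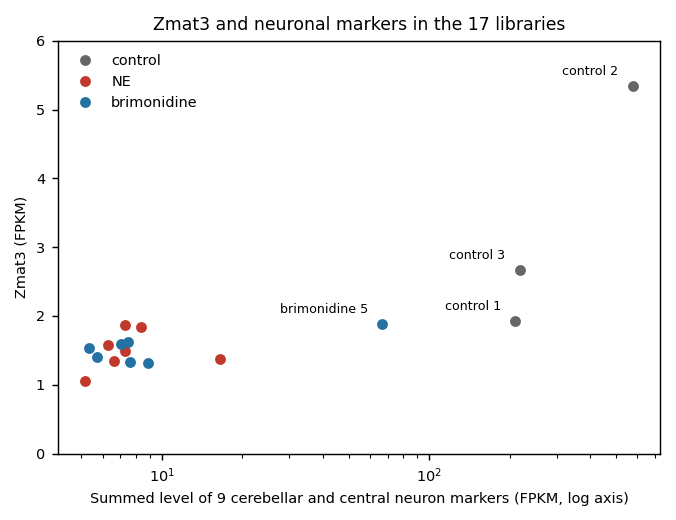
Zmat3 (FPKM, vertical axis from 0) against the summed FPKM of 9 markers of cerebellar and central neurons (horizontal log axis) in the 17 libraries. Control 2 is highest on both axes, at 5.34 and 579 FPKM, and 13 of the 14 exposed libraries hold at most 16.6 FPKM of the markers.

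Trp53inp1 was the member with the largest positive difference between NE and control. It had 33.2, 20.6 and 35.8 FPKM in the control libraries and between 29.5 and 62.6 (median 49.0) in the NE group, where 6 of 7 libraries lay above the control mean of 29.9. The 6 NE libraries other than NE 6, at 29.5, lay above all control libraries. The log2 fold change was 0.68 (95% confidence interval 0.19 to 1.17, adjusted p = 0.0674), and it was 0.79 (adjusted p = 0.0203) without NE 6 and 0.44 (adjusted p = 0.301) without control 2. It also passed with the median ratio (0.80, adjusted p = 0.0398), with all 17 libraries in 1 fit (0.68, adjusted p = 0.0175) and with array weights (0.48, adjusted p = 0.011), and over all 20 alternatives its adjusted p lay between 0.011 and 0.303. With array weights Gdf15 (0.61, adjusted p = 0.0281) and Bax (-0.23, adjusted p = 0.0427) passed as well. Of all genes, 14.8% passed with the median ratio, 27.1% with all 17 libraries and 37.4% with array weights. Bax had 10.4, 9.20 and 9.43 FPKM in the control libraries and between 6.84 and 9.19 in the NE group. The ranges met within 0.01 FPKM, at control 2 and NE 4, and the log2 fold change was -0.24 (adjusted p = 0.116). Phlda3 had 9.14, 14.1 and 10.1 FPKM in the controls, and its NE libraries ran from 7.44 to 10.4 (log2 fold change -0.26, adjusted p = 0.202). The value of Phlda3 was -0.09 without control 2 and -0.37 without control 1. In the main fit Mdm2, Ccng1 and Sesn2 differed by at most 0.05 on the log2 scale, with intervals between -0.24 and 0.27. Over the 20 alternatives Mdm2 ran from -0.11 to 0.16, Ccng1 from -0.06 to 0.11 and Sesn2 from -0.08 to 0.17, and none of them passed.

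The comparison of brimonidine with control shared the 3 control libraries with the last one, and it gave the same member, Zmat3. The cerebellar and central neuron markers summed to at least 210 FPKM in every control library and to at most 66.8 in the brimonidine libraries, so exposure and tissue make-up cannot be told apart here either, for the members or for the other pathway genes. The log2 fold change of Zmat3 was -0.70 (95% confidence interval -1.13 to -0.27, adjusted p = 0.0357 in limma), -0.38 without control 2 (adjusted p = 0.0792) and -0.78 without control 3 (adjusted p = 0.0524). Leaving out any brimonidine library other than brimonidine 5 raised its adjusted p above 0.05, so it did not pass. Over all 7 of these fits the log2 fold change lay between -0.73 and -0.68. It was 1 of 9 past an adjusted p of 0.05, beside 15.8% of all 15947 genes. In that fit none passed both this and a 2-fold change, as 5.73% of all genes did. Over the 20 alternatives the log2 fold change of Zmat3 lay between -1.004 and -0.379, so its low end was past 2-fold. At an unadjusted p of 0.05, 5 of the 9 and 35.6% of all genes passed, and voom called 2 of the 9, Cdkn1a and Zmat3, and 16.4% of all genes. Ranges that did not overlap were found for 1 member, Zmat3, and for 19.4% of all genes tested. With equal totals or quantile normalization no member was separate, and with the median ratio Trp53inp1 was separate as well as Zmat3. For Cdkn1a the log2 fold change was -0.47 (95% confidence interval -0.79 to -0.15, adjusted p = 0.0525), with 7 of 7 brimonidine libraries below the control mean. For Gdf15 it was 0.74 (0.16 to 1.33, adjusted p = 0.0783), with 7 of 7 above it. Trp53inp1 was at 0.46 (0.09 to 0.84, adjusted p = 0.0838) and Phlda3 at -0.35 (-0.67 to -0.04, adjusted p = 0.108). Leaving out control 2 gave -0.33 for Cdkn1a, 0.62 for Gdf15, 0.22 for Trp53inp1 and -0.18 for Phlda3, and leaving out control 3 gave -0.41 for Cdkn1a and 0.45 for Gdf15, none past an adjusted p of 0.05. Cdkn1a passed with quantile normalization, all 17 libraries, array weights and voom, Gdf15 with the first 3 of these, and Phlda3 and Bax with array weights. Of all genes, 19% passed with quantile normalization, 27.9% with all 17 libraries, 43.4% with array weights and 16.4% with voom. Without control 1, 4 of the 9 passed, beside 30.1% of all genes, Cdkn1a at -0.66 (adjusted p = 0.00689), Gdf15 at 1.16 (0.00365), Phlda3 at -0.47 (0.0473) and Zmat3 at -0.94 (0.00669).

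**Figure D5:**
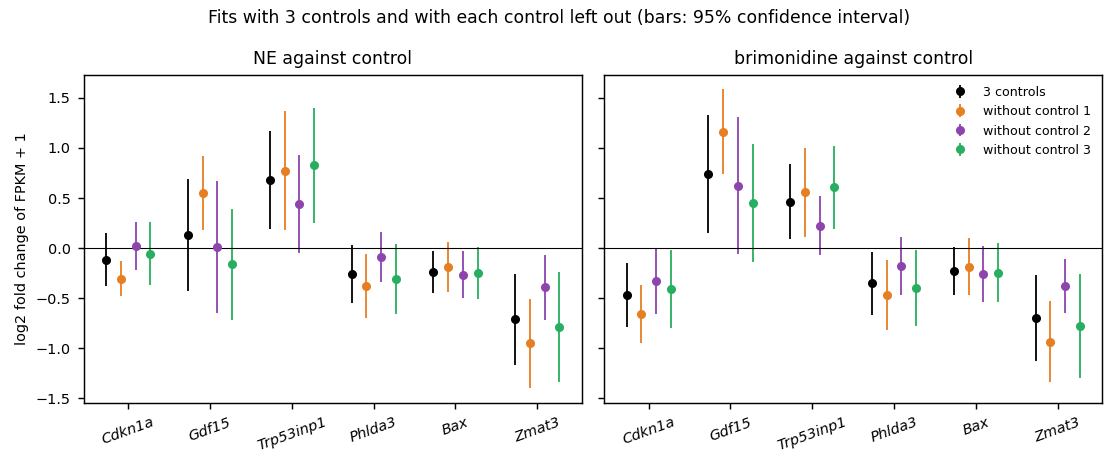
Log2 fold change of FPKM + 1 (vertical axis) with 95% confidence intervals for 6 of the genes, in the comparisons of NE and of brimonidine with control, fitted with 3 controls and with each control left out. The values of Gdf15 move most, from -0.16 without control 3 to 0.55 without control 1 in the NE comparison.

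Within the exposed groups the 10 genes did not move as 1 block. Over the 14 exposed libraries with group means subtracted, the 45 pairs of members had a median r of 0.11, and 27 were above 0. The highest r were those of Gdf15 with Phlda3 (0.67), Trp53inp1 with Eda2r (0.64), Ccng1 with Zmat3 (0.64) and Eda2r with Zmat3 (0.63), and the lowest was that of Gdf15 with Sesn2 (-0.63). NE 6 was the lowest library of its group for 7 of the 10 genes, Ccng1, Gdf15, Mdm2, Trp53inp1, Phlda3, Eda2r and Zmat3, and the highest for Sesn2. It was also the lowest of its group for 37.0% of all 15707 genes, and its neutrophil markers summed to 64912 FPKM against at most 45063 in the other NE libraries. The part of these markers in the members' levels was not tested.

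The genes whose pattern over these 14 libraries was most like that of Cdkn1a, among 14672 genes averaging 1 FPKM or more, were Itm2c (r = 0.84), Fam109a (0.82), Plpp2 (0.81), P3h4 (0.80) and 6330403L08Rik (0.80). Those most like Gdf15 were Baiap3 (0.84), Il27ra (0.83), 9230112E08Rik (0.82), Tacr3 (0.80) and Irak2 (0.80). None was another member or a gene of the p53 lists. When all 17 libraries were used with the group means kept, Pde4b (0.89) came first for Cdkn1a and Gm22101 (0.79) for Gdf15, and of the 10 genes above only Baiap3 stayed among the 5 most like.

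The wider pathway was described with lists of p53 and its regulators, other p53 targets, the ATF4 arm of the stress response, ligands and receptors, and paralogues. Trp53 itself averaged 17.5 ± 2.19 FPKM in controls, 20.8 ± 0.95 after NE and 20.4 ± 1.57 after brimonidine, with a log2 fold change of 0.24 between NE and control (adjusted p = 0.0704). Mdm4, which encodes a partner of MDM2 that restrains p53, had 17.4 ± 0.59, 17.7 ± 2.57 and 19.3 ± 2.44 FPKM. Of the 17 regulators tested, 1 passed an adjusted p of 0.05 between NE and control, and it was lower, where 14.1% of all genes passed, 338 higher and 1909 lower. This was Ppm1d, for the phosphatase WIP1 that switches p53 off, which fell from 10.8 ± 2.24 to 7.21 ± 0.32 FPKM (log2 fold change -0.51, adjusted p = 0.00681) and passed without control 2 as well. Between brimonidine and control 2 passed, beside 15.8% of all genes, Ppm1d lower (-0.43, adjusted p = 0.0231) and Chek2, for a checkpoint kinase that phosphorylates p53, higher (0.41, adjusted p = 0.0231), and neither did without control 2.

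Of 37 other p53 targets tested between NE and control, 2 passed, where 14.1% of all genes did. Pidd1, a death domain gene, was higher at 5.34 ± 0.38 FPKM against 3.99 ± 0.88 (log2 fold change 0.36, adjusted p = 0.0463). The other was Gls2, for liver-type glutaminase, with 0.452 ± 0.065 FPKM in the NE group, 0.531 ± 0.205 in the brimonidine group and 2.66 ± 1.78 in the controls. Gls2 reached 1 FPKM in control libraries alone and so entered the fits only through the group where it was high, which makes its passing in both comparisons with control no support for a difference. Between brimonidine and control Ckap2 was higher (0.60, adjusted p = 0.0382), and with Gls2 2 of 37 passed beside 15.8% of all genes. Without control 2, Pidd1 and Ckap2 did not pass and Gls2 was not tested. The median log2 fold change of the list was -0.01 between NE and control and 0.04 between brimonidine and control, beside -0.04 and -0.03 for all genes. Sesn1, another sestrin that p53 induces, had 17.6 ± 6.27, 11.5 ± 1.42 and 11.9 ± 0.95 FPKM in the 3 groups (adjusted p = 0.062 between NE and control).

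Of 22 genes of the ATF4 arm tested between NE and control, 2 were lower and none higher, beside the 14.1% of all genes. Vldlr, a lipoprotein receptor, fell from 5.90 ± 3.34 to 2.37 ± 0.38 FPKM (log2 fold change -0.94, adjusted p = 0.0176), and Ddit4, an inhibitor of mTORC1 that also answers to p53 and glucocorticoids, fell from 34.7 ± 9.27 to 21.5 ± 3.83 (-0.65, adjusted p = 0.0315). Both passed without control 2. Between brimonidine and control the same 2 of 21 tested passed, beside 15.8% of all genes. Vldlr and Ddit4 were again lower, at -0.90 (adjusted p = 0.0231) and -0.77 (adjusted p = 0.0347). Atf4 had means of 130 ± 15.7, 119 ± 14.7 and 111 ± 6.76 FPKM in the control, NE and brimonidine groups, and Ddit3, for the factor CHOP, had 11.6 ± 2.37, 9.17 ± 0.97 and 9.62 ± 0.67. Neither passed in a comparison. Atf4 passed between brimonidine and control when control 2 was left out.

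Among the 15 paralogues tested between NE and control, 2 passed, beside 14.1% of all genes. Cdkn2c, for the kinase inhibitor p18, was higher (0.52, adjusted p = 0.036) and the Bax relative Bok was lower, at 3.33 ± 0.60 against 6.15 ± 1.70 FPKM (-0.71, adjusted p = 0.0123). Between brimonidine and control Bok was the 1 of 14 to pass, beside 15.8% of all genes, and it was lower (-0.90, adjusted p = 0.0012). It passed without control 2 in both comparisons, where Cdkn2c did not. The p21 relatives Cdkn1b and Cdkn1c averaged 41.3 ± 6.28 and 5.88 ± 2.20 FPKM in controls, 33.8 ± 2.47 and 4.85 ± 0.71 after NE, and 33.4 ± 1.53 and 4.90 ± 0.59 after brimonidine, and neither passed. Sesn3 had 6.35 ± 3.16, 3.80 ± 0.93 and 3.78 ± 0.50 FPKM. Of the ligands and receptors of GDF15 and EDA2R, only Traf6 was tested in each comparison, and it did not pass. Ret, a co-receptor of GDF15, averaged 1.17 ± 0.67 FPKM in controls and 0.742 and 0.515 in the exposed groups, and Eda, Edar and Edaradd stayed under 1 FPKM in every library.

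Between brimonidine and NE, none of the 17 regulators, 36 other targets, 22 ATF4 genes, 14 paralogues and Traf6 passed an adjusted p of 0.05 in limma, and voom called none. At an unadjusted p of 0.05, 0, 3, 4, 1 and 0 of them passed, beside 5.77% of all genes. The log2 fold changes of the genes on these lists lay between -0.31 and 0.16.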

How the data were processed

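Cochlear RNA was sequenced from 17 mice. Per the labels, total RNA was extracted with TRIzol and libraries were made with a TruSeq stranded mRNA kit; the submitters' processing notes name Trimmomatic, HISAT2, Cufflinks, HTSeq and build mm10, without versions. The authors deposited FPKM values for each gene and library with no further scaling. Of the values above 0, 91.4% were whole fragments (within 0.02) with GENCODE M21 exon lengths; for Cdkn1a the length, 2223 bases, was solved from the values. The study's DESeq2 test was not run here, and the fragments recovered from the FPKM values were fitted with limma's voom as an alternative. In M21, exons of Cdkn1a overlap AC167363.2 and exons of Bax overlap Gm45808, and neither is in the table.

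Groups were taken from the labels, and no label gives a batch. Genes at or above 1 FPKM in 3 or more libraries of a comparison were fitted with limma 3.58.1 in R 4.3.3 (trend) on log2(FPKM + 1), which understates changes of low genes, for each pair of groups, with Benjamini-Hochberg adjustment over all genes tested and thresholds of 0.05 and, where stated, an absolute log2 fold change of 1. The fit was tested on simulated data. Named genes were the 10 members, list genes with an adjusted p under 0.05, 8 landmark genes, and the 5 genes most like Cdkn1a and Gdf15; Traf6, Ret, Eda, Edar, Edaradd, Cdkn2a, Pde4b and Gm22101 were named outside this rule, after their values were seen, and marker genes only where a list is described. The members, lists and tests were chosen with earlier results of these data known. Alternatives were another pseudocount, no filter, 3 scalings, all 17 libraries, array weights, a robust step, voom, a replicate block and each library left out; the ranges of the members under each scaling were added after seeing the data. Figures were drawn with matplotlib 3.10.9.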

Additional observations from a re-analysis of the deposited data

How the results depend on the processing

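Between brimonidine and NE, none of the 9 genes passed an adjusted p of 0.05 in limma or voom under any of the 24 alternatives. The log2 fold change of Cdkn1a lay between -0.39 and -0.31 and that of Gdf15 between 0.53 and 0.89. Of all genes, array weights gave 4 past the adjusted p and 1 past both thresholds, no filter, equal totals, quantile normalization, all 17 libraries and the replicate block gave 0, and leaving out 1 library gave between 0 and 2 past the adjusted p and 0 past both.

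With control libraries the counts moved. Between NE and control, 918 genes passed both thresholds and 2247 the adjusted p alone; the latter became 4452 with all 17 libraries and 5970 with array weights. With 1 library left out they lay between 368 and 934, and between 1040 and 3767. Of the members, 0 passed with no filter (7.03% of all genes), equal totals (9.97%) or quantile normalization (15.4%), 2 with the median ratio (14.8%) or all 17 libraries (27.1%), 4 with array weights (37.4%), and between 0 and 3 with 1 library left out. Between brimonidine and control, 913 and 2518 genes passed; the latter became 4578 with all 17 libraries and 6916 with array weights, and leaving out 1 library gave between 468 and 1080, and between 1472 and 4693. Of the members, 0 passed with no filter (7.51% of all genes) or equal totals (11.7%), 2 with quantile normalization (19%) or voom (16.4%), 3 with all 17 libraries (27.9%), 5 with array weights (43.4%), and between 0 and 4 with 1 library left out. Among the fits with 1 library left out, the lowest counts of genes came without control 2 and the most members passed without control 1; the cause was not tested.

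No sign of pairing by replicate number was seen, as the deviations of libraries with the same number correlated between -0.24 and 0.09. With groups this small, and deviations that sum to 0 in each group, these values cannot exclude pairing. With the replicate block, 0 genes passed between NE and control at either threshold and 236 between brimonidine and control at both, and 0 members passed in each comparison. Rescaling by the median ratio or by quantiles moved the median log2 fold change of all genes between NE and control from -0.04 to 0.06, and the share of calls at an adjusted p that were higher rose from 338 of 2247 to 725 of 2364 and 956 of 2463. With voom, 1248, 0 and 1281 genes passed both thresholds in the 3 comparisons. The 3 control libraries and the few fragments of Gdf15 and Eda2r limit the precision.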

Other observations

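Each member was also compared across the 20 groups of 7 libraries formed by the 10 genes and the 2 exposed groups, and in none was the gap between an extreme library and its neighbour, divided by the range, above Dixon's critical value of 0.568. Of the ligand and receptor genes, Ret had between 0.338 and 1.79 FPKM after NE and between 0.28 and 0.657 after brimonidine, and its mean of 1.17 FPKM in the controls rested on a range of 0.644 to 1.93. Cdkn2a, whose products restrain MDM2 and the cyclin D kinases, averaged 0.247 ± 0.21 FPKM in controls (SD, n = 3), 0.328 ± 0.14 after NE and 0.263 ± 0.13 after brimonidine (SD, n = 7 for each) and was below the filter in every comparison.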
